A study of Mus musculus with 2 samples.

Results

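The genes described here make cholesterol and fatty acids, or control that synthesis. They are 31 genes, found in both deposited expression tables by matching the symbols of a list of 33, out of 20373 genes listed in all. The rule that picks them uses symbols and no expression value, but the list was drawn up with earlier results of these data known. Of the 31, 16 encode enzymes of sterol synthesis, 5 belong to the regulatory system around the SREBP transcription factors, 9 make, desaturate or elongate fatty acids, and 1, Abca1, exports cholesterol.

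RNA was sequenced from 2 fluorescence-sorted populations of embryonic mouse cortex, taken at embryonic day 15.5. The embryos came from a cross of heterozygous Nestin-GFP mice with homozygous DCX-mRFP mice and carried both reporters. Green cells were collected as neural progenitor cells (NPCs) and double-coloured cells as neurons. The populations are thus defined by reporters that regulatory sequences of Nestin and doublecortin drive, and cells collected as neurons carried both colours. There was 1 library of each population, and how many embryos were pooled is not given in the sources used here. The series relates these transcriptomes to RNA polymerase II pausing and bivalent histone marks, which were not analysed here.

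Cholesterol is built from acetyl-CoA through mevalonate and isoprenoid diphosphates to squalene, which is closed to lanosterol and then trimmed and reduced. Fatty acid synthesis starts from the same acetyl-CoA, which ATP citrate lyase supplies in the cytosol. Both routes are driven by SREBP transcription factors, which Scap escorts out of the endoplasmic reticulum when sterols are low and Insig proteins hold back when sterols are high. The brain makes most of its own cholesterol once its barrier to blood lipoproteins has formed, and dividing progenitors and growing neurites both need new membrane.

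Reads assigned to genes summed to 26346226 for NPCs and 23312054 for neurons. Transcript levels are in CPM, counts per 1000000, with the authors' deposited scaling between libraries kept. A level of 1 CPM stands for 26.97 NPC reads or 22.8 neuron reads. Nes was 2.16-fold higher in the NPC library (95% counting interval 2.08 to 2.23) and Dcx 1.31-fold higher in the neuron library (1.29 to 1.32). All 12 markers of dividing cells were at least 2-fold higher in the NPC library and 12 of 13 neuronal markers were higher in the neuron library. Each library also held transcripts typical of the other. Dcx was at 2522 CPM in the NPC library against 3294 CPM in the neuron library, and the 13 neuronal markers summed to 6387 and 10070 CPM. The dividing cell markers summed to 1736 and 565.5 CPM. How far incomplete separation affects the size of the differences below was not tested. Other cell types were present and unequal. The summed level of 10 pericyte markers was 228.1 CPM in the NPC library against 12.1 CPM in the neuron library, that of 10 endothelial markers 22.9 and 3.38, that of 9 oligodendrocyte lineage markers 90.7 and 36.0, and that of 14 microglia and macrophage markers 38.0 and 154.3. In the neuron library 1 pericyte marker (Des) and 1 endothelial marker (Erg) were at 0 reads. The part of these cells in the differences below was not tested. In such bulk libraries fewer cells of a type and less RNA per cell cannot be told apart.

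**Figure D1:**
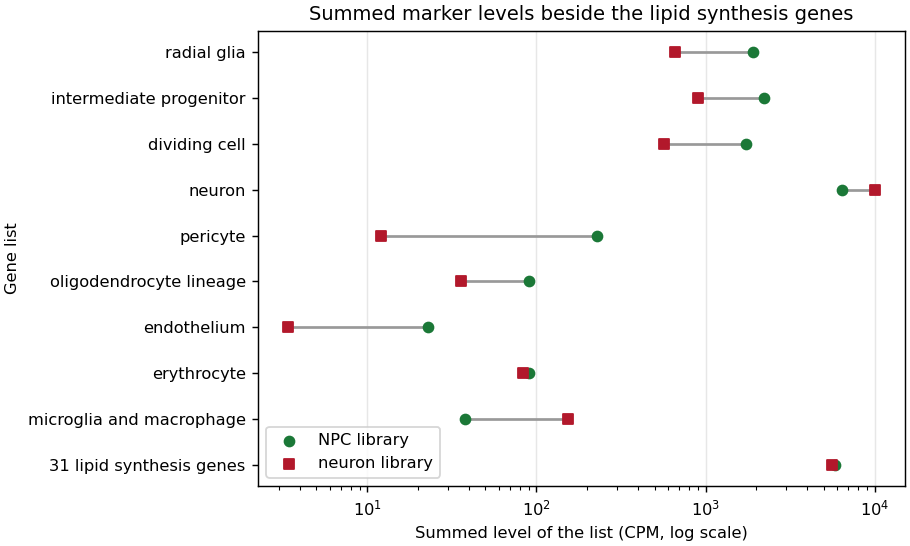
Summed level of each marker list and of the 31 lipid synthesis genes (x axis, CPM, log scale) in the NPC library (green circles) and the neuron library (red squares), 1 library each. The summed level of the lipid synthesis genes was 5864 CPM in the NPC library against 5573 CPM in the neuron library, while pericyte markers stood at 228.1 against 12.1 and microglia and macrophage markers at 38.0 against 154.3.

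As a group the lipid synthesis genes were well expressed in both populations and differed little between them. All 31 passed the filter, which asks for 1 CPM or more in either library, and together they took 0.600% of the NPC reads (95% exact binomial interval 0.597 to 0.603) and 0.545% of the neuron reads (0.542 to 0.548). Their log2 ratios of neuron to NPC, computed with 1 CPM added to both values, had a median of 0.12, against −0.0049 for all 12693 genes that passed the filter. The middle 50% of the members lay between −0.13 and 0.18, and that of all genes between −0.26 and 0.24. On this scale 27 of 31 members (87.1%) lay within 1.5-fold, as did 76.3% of all genes. The members at least 1.5-fold higher in the NPC library were 2, Srebf1 and Abca1, where 13.1% of all genes were called in that direction. Those at least 1.5-fold higher in the neuron library were also 2, Fdft1 and Tm7sf2, against 10.6% of all genes. With scaling by total reads these counts were 3 and 1, as Idi1 passed 1.5-fold and Fdft1 no longer did. No member reached 2-fold, which 6.73% of all genes did toward the NPC library and 3.85% toward neurons.

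With 1 library per population there is no replicate error, and no p-value was computed. The intervals beside single folds are exact 95% intervals for the counts of the 2 libraries, and they cover counting error only, since without molecular identifiers 1 molecule can give several reads. The folds are ratios of CPM without the added 1. By these intervals 17 members were higher in the neuron library, 9 were higher in the NPC library and 5 (Mvk, Sc5d, Dhcr7, Insig2 and Fads2) could not be separated at this depth. Among all genes that passed the filter, 33.6% and 34.6% had intervals on the neuron and the NPC side of equality, so an interval that leaves out equality was common at this depth.

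**Figure D2:**
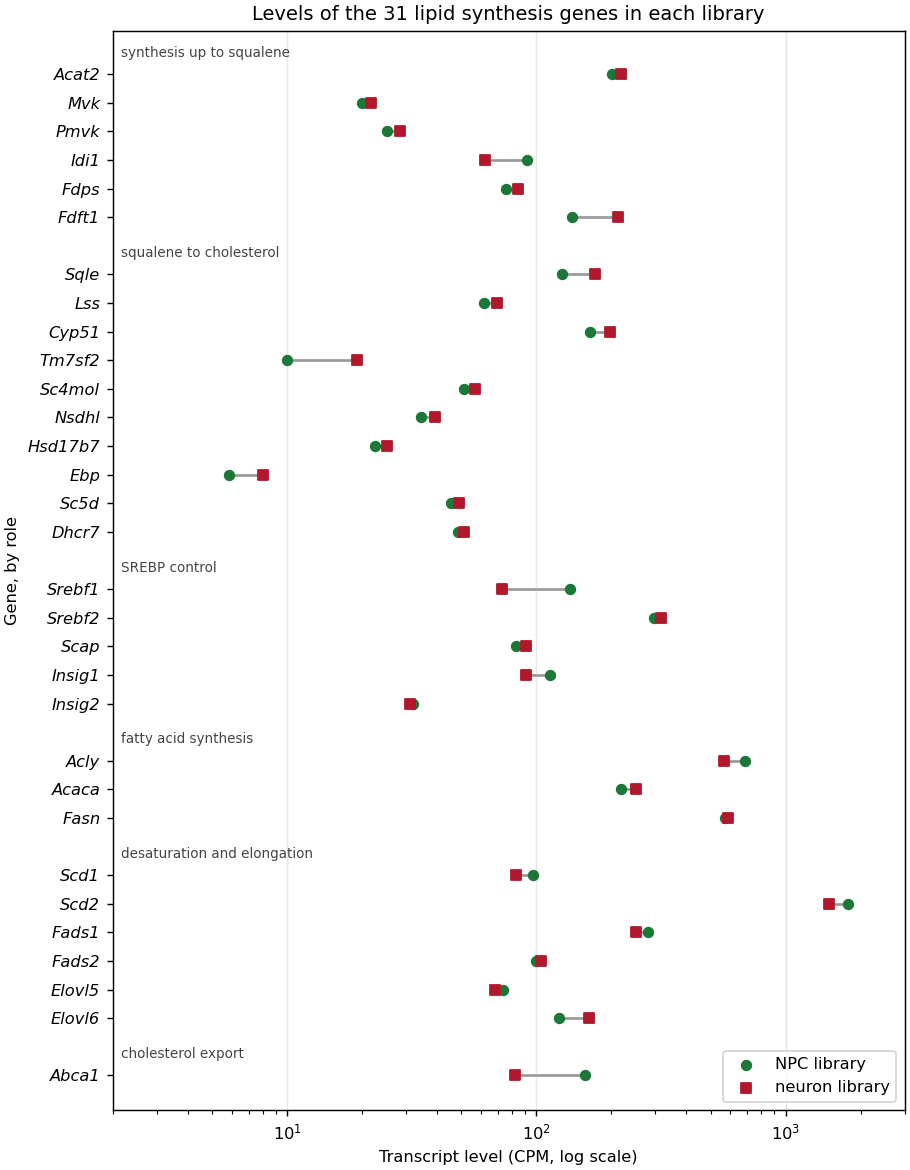
Transcript level of each gene (x axis, CPM, log scale) in the NPC library (green circles) and the neuron library (red squares), with genes grouped by role; 1 library each, so no error bar is drawn. The widest gaps are those of Abca1 (157.1 and 82.3 CPM), Tm7sf2 (10.01 and 19.1) and Srebf1 (136.2 and 72.6).

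The enzymes of sterol synthesis leaned toward neurons by small amounts. Of the 16 measured, 15 were higher in the neuron library, where 49.3% of all genes were, and the median log2 ratio of the 16 was 0.16. Their summed level was 1122 CPM in the NPC library against 1315 CPM in the neuron library, a ratio of 1.17. The exception was Idi1. Microglia and macrophage markers, at 154.3 against 38.0 CPM in sum, were higher in the neuron library as well, and their part in these small differences was not tested. For 12 of the 15 the counting interval lay above equality, and for Mvk, Sc5d and Dhcr7 it did not.

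Among the enzymes that lead from acetyl-CoA to squalene, Acat2, a cytosolic thiolase that joins acetyl-CoA units, was at 200.3 CPM in the NPC library against 219.4 CPM in the neuron library. Mvk, the kinase of mevalonate, was at 19.95 and 21.7 CPM. Pmvk, the next kinase, was at 25.2 and 28.3 CPM. These steps were nearly level, with folds of 1.10, 1.09 and 1.12 toward neurons. Idi1, which interconverts the isoprenoid building blocks, was at 91.3 CPM in the NPC library against 61.9 CPM in the neuron library. It was 1.47-fold higher in the NPC library (1.38 to 1.57), just short of the 1.5-fold used for counting, which it passed with scaling by total reads (log2 ratio −0.62), and was the sole sterol enzyme of the 16 on that side. Fdps, the farnesyl diphosphate synthase that follows Idi1 in the route, was at 75.9 and 84.1 CPM, 1.11-fold higher in the neuron library (1.04 to 1.18), and shares 1124 exon bases with a predicted gene on the same strand. Fdft1, squalene synthase, commits farnesyl diphosphate to sterols and was at 138.7 and 212.9 CPM. It was 1.54-fold higher in the neuron library (1.47 to 1.60). In the GENCODE M21 annotation its exons share 774 bases with Ctsb, a lysosomal protease gene on the opposite strand, and Ctsb was 1.72-fold higher in the neuron library (163.5 and 280.9 CPM). Strand use in counting is not given in the sources used here, so reads of Fdft1 and Ctsb cannot be told apart in that stretch.

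From squalene onward all 10 measured enzymes were higher in the neuron library, with log2 ratios from 0.070 to 0.87 and a median of 0.18. Sqle, the squalene epoxidase that is a rate-limiting oxygenase of the route, was at 126.8 CPM in the NPC library against 171.5 CPM in the neuron library. It was 1.35-fold higher in the neuron library (1.29 to 1.42). Lss, which closes the sterol rings, was at 61.6 and 69.7 CPM (1.13-fold, 1.05 to 1.21). Cyp51, the lanosterol demethylase, was at 164.2 and 197.2 CPM (1.20-fold, 1.15 to 1.25), and 166 of its exon bases overlap Akap9 on the opposite strand (695.7 and 735.2 CPM). The largest fold of the 16 sterol enzymes belonged to Tm7sf2, a sterol reductase, at 10.01 and 19.1 CPM. It was 1.91-fold higher in the neuron library (1.64 to 2.23), from 270 and 435 reads. Lbr, the lamin B receptor, carries the same reductase activity and was opposite in direction, at 77.2 and 36.8 CPM and 2.10-fold higher in the NPC library (1.94 to 2.28).

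The remaining steps were close to level, apart from that of Ebp. Sc4mol (now Msmo1), the sterol methyl oxidase, was at 51.4 and 56.9 CPM. Nsdhl, the sterol dehydrogenase that acts with it, was at 34.3 and 39.3 CPM. Hsd17b7, the ketosterol reductase of the same complex, was at 22.4 and 25.2 CPM. These 3 enzymes of the demethylation complex had nearly the same fold toward neurons, 1.11, 1.15 and 1.12. Ebp, the sterol isomerase, had the fewest reads of the 31 members, at 5.82 and 7.99 CPM, and its 1.37-fold difference rests on 157 and 182 reads (1.10 to 1.71). Sc5d, the sterol desaturase, was at 45.5 and 48.7 CPM. Dhcr7, which completes cholesterol and whose loss causes Smith-Lemli-Opitz syndrome, was at 48.6 and 51.05 CPM (1.05-fold, 0.970 to 1.14), with no difference detectable at this depth.

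Promoters of these enzymes share a sequence feature that the list did not use. Promoter windows of 300 bases, from 250 before to 50 after the start, were taken from RefSeq on GRCm38.p6, and 25 of the 31 members matched by symbol. The CCAAT box, the letters CCAAT on either strand, which the factor NF-Y binds, stood in a window of 12 of the 13 matched sterol enzymes and of 3 of the 6 matched fatty acid genes. It was in 43.7% of the 9101 genes of the files that passed the filter and had an entry, and in 37.4% of all 32851 windows. The GC box (GGGCGG, either strand) was in 12 of the 13 sterol enzymes too and in 2 of the 6 fatty acid genes. It was in 70.5% of those 9101 genes, or 35.7% of all windows. The E-box CACGTG was in 3 of 13, against 11.8% and 7.15%. A sterol regulatory element spelled TCACNCCAC, on either strand, was in 0 of the 25 matched members and in 1.24% of all windows, which says only that these letters are not in these windows. In the members' windows 0 pairs of matches of different motifs overlapped. A match is a description of the sequence and no evidence of binding.

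The 80 bases just before the start are shown for the 2 matched sterol enzymes that differed most between the libraries in opposite directions. These are Idi1 (chr13:8885526-8885605, plus strand) and Tm7sf2 (chr19:6067851-6067930, minus strand). Also shown are 3 with smaller folds toward the neuron library. These are Mvk (chr5:114444189-114444268, plus strand, 1.09-fold), Cyp51 (chr5:4104698-4104777, minus strand, 1.20-fold) and Hsd17b7 (chr1:169969206-169969285, minus strand, 1.12-fold). Sequences run 5′ to 3′ on the gene's strand, and capitals mark CCAAT or its reverse complement.
Idi1: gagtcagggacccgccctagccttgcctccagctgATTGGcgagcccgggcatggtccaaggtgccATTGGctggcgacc
Tm7sf2: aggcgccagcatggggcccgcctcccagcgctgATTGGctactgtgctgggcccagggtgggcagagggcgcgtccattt
Mvk: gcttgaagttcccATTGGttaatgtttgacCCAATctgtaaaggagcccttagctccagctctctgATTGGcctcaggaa
Cyp51: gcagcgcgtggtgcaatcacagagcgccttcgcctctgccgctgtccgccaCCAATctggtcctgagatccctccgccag
Hsd17b7: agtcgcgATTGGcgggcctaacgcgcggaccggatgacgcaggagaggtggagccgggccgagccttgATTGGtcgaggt
Only genes with a box in this stretch were eligible to be shown, so its presence in each was set in advance. Among the matched sterol enzymes, Acat2 had no box in its window and Pmvk had its box 136 bases before the start. The box was present within 80 bases of the start both in Idi1, which was higher in the NPC library, and in Tm7sf2, which was higher in the neuron library. Idi1 and Hsd17b7 hold 2 boxes in this stretch, Mvk holds 3, and Tm7sf2 and Cyp51 hold 1 each.

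**Figure D3:**
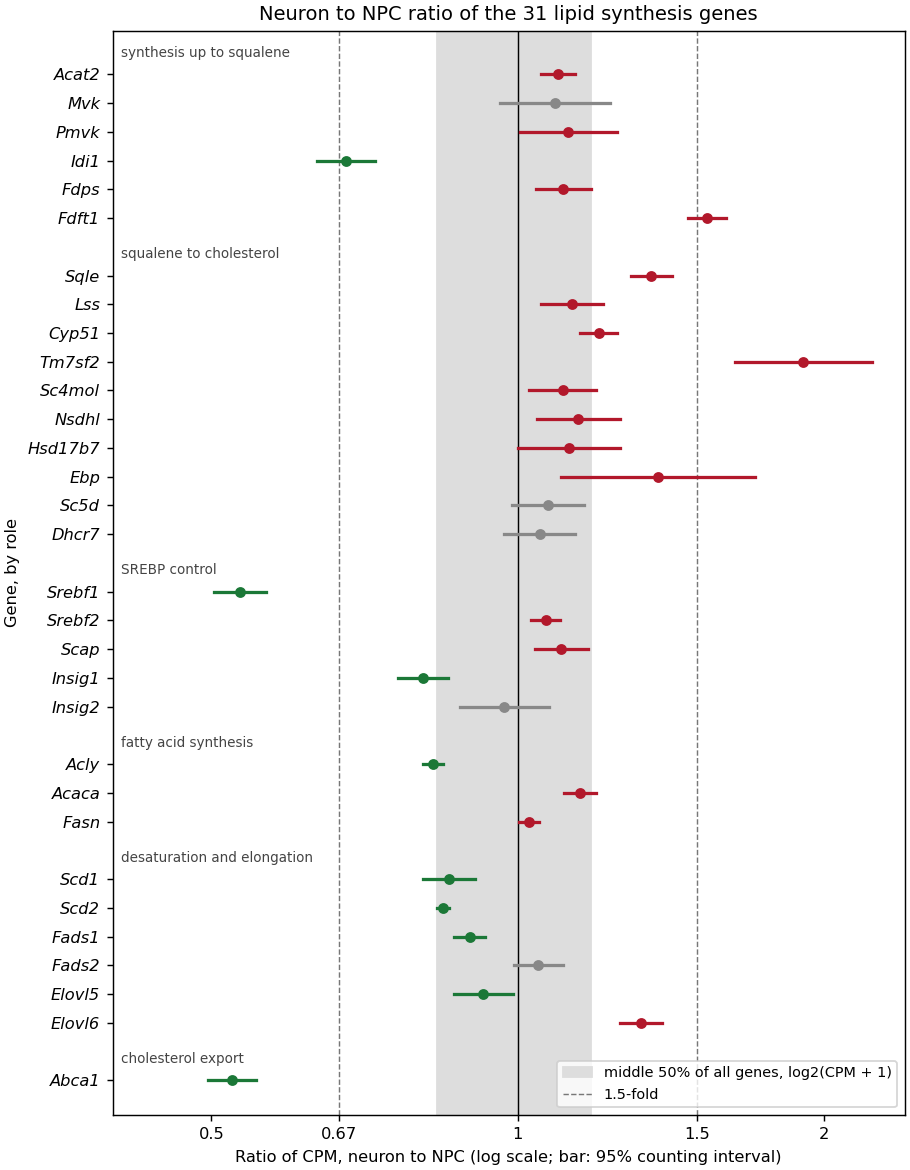
Ratio of CPM, neuron to NPC (x axis, log scale), for each gene by role, with its 95% counting interval; red marks genes higher in the neuron library, green those higher in the NPC library and grey those whose interval holds 1. The grey band is the middle 50% of all genes on the log2(CPM + 1) scale. Srebf1, Abca1, Idi1, Insig1 and Acly stand to its left, while Tm7sf2, Fdft1, Sqle, Elovl6, Ebp and Cyp51 stand to its right.

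The regulators of the pathway split between the 2 SREBP genes. Srebf1, whose products mainly drive fatty acid synthesis, was at 136.2 CPM in the NPC library against 72.6 CPM in the neuron library. It was 1.88-fold higher in the NPC library (1.77 to 1.99). Srebf2, whose product mainly drives cholesterol synthesis, was at 295.7 and 314.9 CPM, 1.06-fold higher in the neuron library (1.03 to 1.10). Per kilobase of merged exon in GENCODE M21, the level of Srebf2 was 1.84 times that of Srebf1 in the NPC library against 3.67 times in the neuron library. An exon overlap of 109 bases with Rai1, on the opposite strand, touches the Srebf1 value. Rai1 was 1.08-fold higher in the NPC library, at 248.6 and 230.9 CPM.

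Scap, the escort of both factors, was at 82.6 and 91.2 CPM (1.10-fold higher in the neuron library, 1.04 to 1.17). Insig1, which retains the Scap complex and is itself a target of SREBP, was at 113.0 and 91.3 CPM. It was 1.24-fold higher in the NPC library (1.17 to 1.31), on the opposite side from 15 of the 16 sterol enzymes. Insig2, its relative, was at 32.03 and 31.1 CPM, and no difference was detectable at this depth (1.03-fold, 0.932 to 1.14).

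The genes of fatty acid synthesis included the 3 members with the most reads, Scd2, Acly and Fasn, and went both ways by small amounts. Of the 9 measured, 5 were higher in the NPC library, where 50.7% of all genes were, and 4 were higher in the neuron library; the median log2 ratio was −0.11 and none passed 1.5-fold. Acly, ATP citrate lyase, was at 685.7 CPM in the NPC library against 566.5 CPM in the neuron library. It was 1.21-fold higher in the NPC library (1.18 to 1.24). Acaca, the acetyl-CoA carboxylase that makes malonyl-CoA, was at 218.6 and 251.7 CPM, 1.15-fold higher in the neuron library (1.11 to 1.19). Fasn, fatty acid synthase, was at 573.2 and 588.3 CPM. Its ratio of 1.03 (1.003 to 1.05) turned to the NPC side with scaling by total reads, so it has no stable direction. The 3 steps from citrate to palmitate thus differed by at most 1.21-fold.

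Desaturation was dominated by Scd2, the stearoyl-CoA desaturase that is the main form in developing brain. It was at 1775 CPM in the NPC library against 1499 CPM in the neuron library, rank 18 and rank 37 among all listed genes by CPM with no correction for length, and it held 30.3% (30.04 to 30.5) and 26.9% (26.7 to 27.2) of the reads of the 31 members. It was 1.18-fold higher in the NPC library (1.17 to 1.20). Scd1, the form best known from liver and fat, was at 97.1 and 83.1 CPM (1.17-fold higher in the NPC library, 1.10 to 1.24). Per kilobase of merged exon Scd2 was at 325.3 and 274.9 CPM, ahead of Acly at 148.7 and 122.9. On the same scale the level of Scd2 was 16.2 times that of Scd1 in the NPC library against 15.98 times in the neuron library. The Scd genes are close copies, and how reads that fit several of them were assigned is not given, so the split between them is uncertain. The other copies, Scd3 and Scd4, chosen after their values were seen, were 1.15-fold and 1.28-fold higher in the NPC library.

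Fads1 and Fads2, which desaturate polyunsaturated fatty acids, stood at 280.1 and 251.2 CPM and at 99.3 and 104.1 CPM. Fads1 was 1.12-fold higher in the NPC library (1.08 to 1.15), and for Fads2 no difference was detectable (1.05-fold, 0.991 to 1.11). Elovl5, which elongates polyunsaturated chains, was at 73.5 and 67.99 CPM (1.08-fold higher in the NPC library, 1.01 to 1.16). Elovl6, which elongates palmitate to stearate, was at 122.9 and 162.4 CPM. It was the fatty acid gene with the largest fold of the 9, 1.32-fold higher in the neuron library (1.26 to 1.39), opposite in direction to Scd1 and Scd2, which desaturate its product.

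Abca1 had the largest difference toward the NPC library of the 31 members. This transporter moves cholesterol out of cells to apolipoproteins and is a classic target of the sterol-sensing LXR receptors. It was at 157.1 CPM in the NPC library against 82.3 CPM in the neuron library, 1.91-fold higher in the NPC library (1.81 to 2.02). Its log2 ratio of −0.92 lay at percentile 7.59 of all genes. Pericyte, endothelial and oligodendrocyte lineage markers, with summed levels 18.8, 6.76 and 2.52 times as high in the NPC library, moved in the same direction as Abca1 and Srebf1, and their part in these 2 results was not tested.

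Related genes, taken from 4 pathway lists and chosen like the members with earlier results of these data known, were set beside these values. Of 15 other genes of sterol and isoprenoid synthesis past the filter, 9 were higher in NPCs and 6 in neurons, and their median log2 ratio was −0.11, so the lean of the 16 sterol enzymes was not seen in this list. At least 1.5-fold higher in the NPC library were 2 of them, Lbr and Tmem97, a sterol-binding membrane protein (12.5 and 7.33 CPM, 1.70-fold, 1.41 to 2.06), and 0 were so in the neuron library. Por, which passes electrons to Cyp51 and Sqle, was 1.45-fold higher in the NPC library. Acat1, the mitochondrial thiolase, and Cyb5r3, an electron donor of sterol oxidation, were 1.37-fold and 1.32-fold higher in the neuron library.

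Further regulators of SREBP and of the LXR receptors were close to level too. Of 18, all past the filter, 10 were higher in NPCs and 8 in neurons; the median log2 ratio was −0.044, and 3 were at least 1.5-fold apart. Prkaa2, a catalytic subunit of the energy sensor AMPK, was at 38.9 and 82.3 CPM (2.12-fold higher in the neuron library, 1.96 to 2.29). Mylip, which marks lipoprotein receptors for degradation, was at 1.93 and 3.91 CPM (2.03-fold higher in the neuron library, 1.42 to 2.91). Nr1h3, the LXR-alpha gene, was barely detected at 1.63 and 0.439 CPM, from 44 and 10 reads, and was 3.71-fold higher in the NPC library (1.84 to 8.28). Nr1h2, the LXR-beta gene, picked with its value known, stood at 57.1 and 48.1 CPM (1.19-fold higher in the NPC library, 1.10 to 1.28). Rxra, the partner of LXR receptors, and Mbtps1, a protease that cuts SREBP, were 1.36-fold and 1.27-fold higher in the NPC library, and Pgrmc1, a haem protein that binds Cyp51, was 1.24-fold higher in the neuron library.

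**Figure D4:**
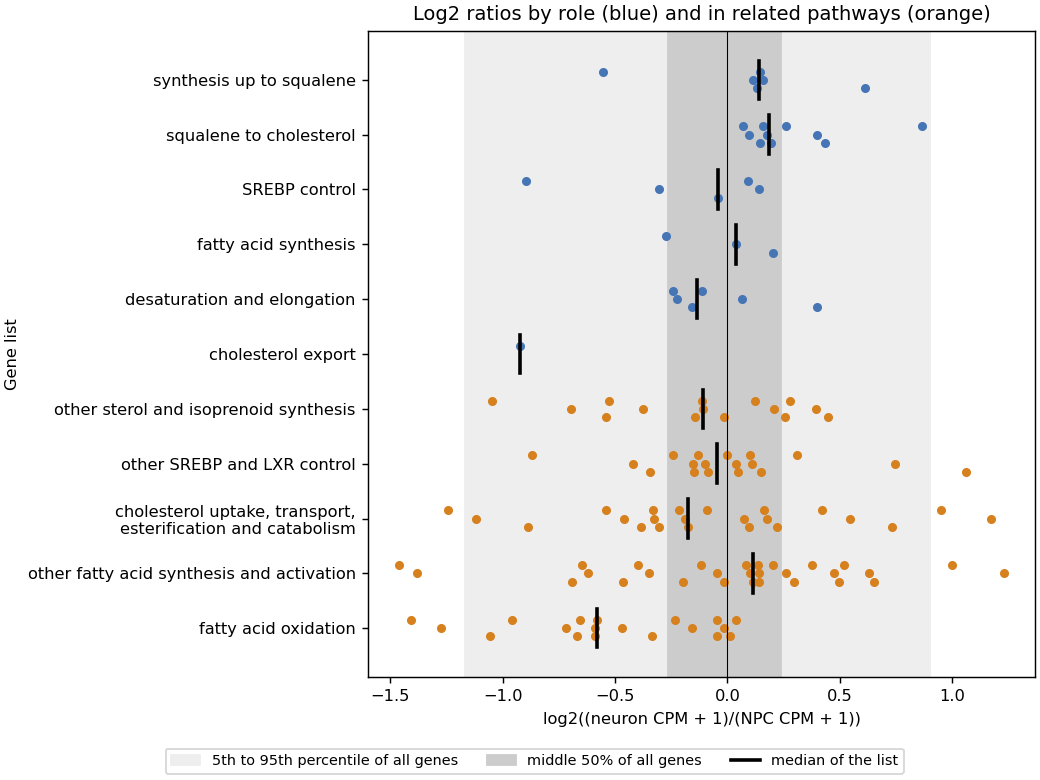
Log2 ratio of neuron to NPC with 1 CPM added (x axis) for each gene past the filter, by role for the 31 members (blue) and in 5 lists of related genes (orange); black bars are list medians, and the grey bands show all 12693 genes. All 10 enzymes from squalene to cholesterol lie right of 0, while 17 of 19 fatty acid oxidation genes lie left of it.

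Genes for cholesterol uptake, transport and breakdown went both ways. Of 23 past the filter, 13 were higher in NPCs and 10 in neurons, with 3 at least 1.5-fold higher on each side and a median of −0.17. Vldlr, a receptor for lipoproteins and reelin, was at 60.5 and 117.9 CPM (1.95-fold higher in the neuron library, 1.83 to 2.08). Apoe, the main lipid carrier protein of the brain, was at 13.5 and 31.8 CPM (2.35-fold higher in the neuron library, 2.07 to 2.67). Microglia make Apoe, and the summed microglia and macrophage markers were 4.06 times as high in the neuron library. Their part in the Apoe value was not tested. Cyp46a1, which hydroxylates cholesterol for export from the brain, was at 10.9 and 4.48 CPM (2.43-fold higher in the NPC library, 1.94 to 3.08). Cyp7b1, an oxysterol hydroxylase, was 1.86-fold higher in the neuron library (1.42 to 2.47), and Clu and Apod, secreted lipid carriers, were 1.96-fold and 8.60-fold higher in the NPC library, the latter from 51 and 5 reads (3.46 to 27.7).

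Other genes of fatty acid synthesis, activation and binding had a median of 0.11. Of 29 past the filter, 12 were higher in the NPC library, 5 of them at least 1.5-fold, and 17 in the neuron library, 4 of them at least 1.5-fold. Fabp7, the fatty acid binding protein that marks radial glia, was at 256.1 and 92.2 CPM (2.78-fold higher in the NPC library, 2.64 to 2.92). Dbi, the acyl-CoA binding protein, was at 134.1 and 50.9 CPM (2.64-fold, 2.47 to 2.82). On the other side, Fabp3 was at 1.78 and 5.53 CPM (3.11-fold higher in the neuron library, 2.21 to 4.43) and the acyl-CoA thioesterase gene Acot7 at 29.8 and 60.7 CPM (2.04-fold, 1.86 to 2.22). Elovl1, an elongase of saturated chains, was 1.73-fold higher in the NPC library (1.39 to 2.17), and Ptpla, a dehydratase of chain elongation, 1.74-fold higher in the neuron library (1.32 to 2.29). These carriers and chain-modifying enzymes thus reached folds that none of the 9 fatty acid members did.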

How the data were processed

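The deposited values are a signal per gene, never negative. Per the submitters' processing notes the tools were TopHat 1.2.0, CASAVA 1.9, edgeR (version not named) and SAMtools 0.1.18, on build mm9, in no stated order. Annotation, strand use and handling of multiply aligned reads: not given in the sources used here. Values are whole multiples of 0.952727 (NPC) and 1.12797 (neuron), the form of counts rescaled to a common size, and division by these steps gave whole reads within 0.05 for 100% and 99.9656% of values. Neuron values under 0.01 were taken as 0. Both libraries were divided by 25698104, the mean of their sums, and multiplied by 1000000 (CPM), which keeps the authors' deposited ratio between libraries.

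The filter kept genes at 1 CPM or more in either library. Log2 ratios of neuron to NPC were taken with 1 CPM added to each value, which understates differences of low genes, and were counted from 1.5-fold. Single folds have exact Clopper-Pearson intervals from recovered reads. A count test across samples could not be fitted with 1 library per population. Calculations ran in Python 3.11.15 with scipy 1.17.1 and were tested on simulated data. Alternatives used edgeR 4.0.16 and DESeq2 1.42.0 in R 4.3.3 for scaling only.

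The members, lists, filter and folds were chosen with earlier results of these data known. Named genes are all members, up to 6 genes per related list with the largest absolute log2 ratio, Nes and Dcx, and others where stated. A gene that this rule names is not reported here. Of cell type markers, the rule took the 2 most abundant per list, given in the closing section. Exon lengths and overlaps come from GENCODE M21 on GRCm38, not the build of the files, and 5 members share exon bases with another protein-coding gene. The files hold no coordinates.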

Additional observations from a re-analysis of the deposited data

How the results depend on the processing

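No paired analysis was possible because each population has 1 library, and no library could be left out. Of the 31 genes, Fasn alone changed direction under any of the other scalings, by total reads (log2 ratio 0.037 to −0.030). Under that scaling 10 of the 31 log2 ratios moved outside their counting interval, against 0 of 31 under the other scalings and pseudocounts. With scaling by total reads the count at least 1.5-fold higher in neurons was 1 in place of 2, since Fdft1 no longer reached it, and the count higher in NPCs was 3 in place of 2, since Idi1 did. A fold of 2 left 0 genes in either direction. The 15 sterol enzymes higher in neurons were 15 under every other scaling and pseudocount and 14 with a filter of 10 CPM, which removed Ebp; under scaling by total reads 41.9% of all genes were higher in neurons. The median of the 31 ranged from 0.051 (total reads) to 0.12 (a pseudocount of 0.1 CPM). A filter of 10 CPM left 0 endothelial and 3 oligodendrocyte lineage markers higher in NPCs, since fewer markers were tested. The median of the 16 sterol enzymes was 0.096 under scaling by total reads, against 0.16 with the deposited scaling. Counting intervals were computed with the deposited scaling only, so the counts of genes with intervals beyond equality may differ under another. Depth limits the statements on Mvk, Sc5d, Dhcr7, Insig2 and Fads2.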

Other observations

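Fatty acid oxidation genes, the catabolic counterpart of the genes above, were lower in the neuron library nearly throughout. Of 19 genes, all past the filter, 17 were higher in the NPC library, where 50.7% of all genes were, and 2 in the neuron library. At least 1.5-fold higher in the NPC library were 9 (13.1% of all genes), with a median log2 ratio of −0.58, and 0 in the neuron library. Acadl, the long-chain acyl-CoA dehydrogenase, was at 9.45 CPM in the NPC library against 2.94 CPM in the neuron library (3.21-fold, 2.45 to 4.27). Cpt1a, the carnitine palmitoyltransferase that admits fatty acids to mitochondria, was at 35.6 and 14.1 CPM (2.52-fold, 2.22 to 2.87). Its partner Cpt2 was 1.72-fold higher in the NPC library (1.45 to 2.05). The short-chain enzymes Hadh (21.1 and 9.61 CPM) and Acads (25.95 and 12.9) were 2.19-fold and 2.02-fold higher there, and Acadm, for medium chains, 1.64-fold. Summed pericyte, endothelial and oligodendrocyte lineage markers were also higher in the NPC library, and their part in these values was not tested.

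The 2 most abundant markers of each other cell type were as follows. Csf1r and Cx3cr1 of microglia were 4.31-fold and 3.85-fold higher in the neuron library. Pdgfrb and Abcc9 of pericytes were 23.2-fold and 21.9-fold higher in the NPC library, as were Kdr (10.97-fold) and Esam (3.47-fold) of endothelium. Pdgfra of oligodendrocyte precursors was 36.0-fold higher in the NPC library, while Mbp was at 18.5 and 15.8 CPM. The globin genes Hba-a1 (60.7 and 56.9 CPM) and Hbb-b1 (28.2 and 25.4) did not differ beyond counting error.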
